A study of Mus musculus with 4 samples.

Results

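The enzymes described here build asparagine, aspartate, alanine, proline and cysteine, and were measured in primary mouse keratinocytes with and without the glucose transporter Glut1. The list names 9 enzyme genes, chosen for their reactions but with earlier results of these data known. A gene was taken as measured where a row of the array named it alone, and the row with the highest mean over all arrays stood for a gene with several rows. By that rule 7 of the 9 enzymes were measured, among 30142 genes in all: Asns, Got1, Got2, Gpt2, Aldh18a1, Cth and Cbs. The row of Glul, the gene of glutamine synthetase, also names a microRNA gene, and no row used here names Pycr1, so neither is analysed here.

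The study compared Glut1-deficient keratinocytes, from mice lacking Glut1 specifically in keratinocytes, with wild type keratinocytes. Both genotypes were on the C57BL/6J strain background and mice were 1 week old. Each genotype had 4 mice. Cells of each mouse were grown in a keratinocyte medium (KSFM) with 0.05 mM CaCl2, 0.05 ug/ml of the glucocorticoid hydrocortisone, 5 ng/ml EGF, 0.5 ug/ml insulin, bovine pituitary extract and antibiotics for 3 days, reseeded at 2000000 cells and harvested the next day. RNA of 2 plates of a genotype was combined for each array, which gave 2 Glut1-deficient and 2 wild type arrays. The labels do not name the driver of the deletion, the deleted part of the gene or any further allele of either genotype. Each array holds a pool of 2 plates, and p-values measure the spread between the pools, part of which may be technical.

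Amino acids that a cell can make itself are built from carbon of glycolysis and of the tricarboxylic acid cycle and from nitrogen of glutamate and glutamine. Asparagine synthetase moves the amide nitrogen of glutamine onto aspartate, aminotransferases pass the amino group of glutamate to oxaloacetate or pyruvate, and a short reductive pathway turns glutamate into proline. Cysteine is made from the sulfur of methionine through transsulfuration. Several of these genes are textbook targets of the transcription factor Atf4, which is made when cells run short of amino acids or suffer other stresses. The promoter of the human ASNS gene holds a classic response element for it.

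The letters upstream of the start site are shown for 4 members that rose, 2 with and 2 without a match to the 8-letter core TGATGNAA of the element bound by Atf4 and its partners. Promoter windows from RefSeq (GRCm38.p6, 250 bases before to 50 after a start) were given for 8 of the 9 enzymes, all but Cth. Each line below gives the 130 bases before the start, read 5′ to 3′ on the strand of the gene, and capitals mark a match on either strand.

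Asns (chr6:7693210-7693339, minus strand): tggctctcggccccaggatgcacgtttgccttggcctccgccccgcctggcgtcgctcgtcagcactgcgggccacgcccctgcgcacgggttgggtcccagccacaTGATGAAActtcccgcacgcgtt

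Got1 (chr19:43524606-43524735, minus strand): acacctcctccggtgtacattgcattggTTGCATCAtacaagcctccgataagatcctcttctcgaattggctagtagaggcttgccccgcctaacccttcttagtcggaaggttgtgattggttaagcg

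Gpt2 (chr8:85492446-85492575, plus strand): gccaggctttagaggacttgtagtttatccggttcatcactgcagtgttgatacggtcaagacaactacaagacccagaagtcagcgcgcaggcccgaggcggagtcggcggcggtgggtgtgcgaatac

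Aldh18a1 (chr19:40588464-40588593, minus strand): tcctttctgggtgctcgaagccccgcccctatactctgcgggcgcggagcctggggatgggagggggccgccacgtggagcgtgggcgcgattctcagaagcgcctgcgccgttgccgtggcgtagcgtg

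The core was found in 3 of the 8 windows of the listed enzymes and in 3.97% of all 32851 windows. In Asns it began 23 bases before the start and ran on the strand of the gene. In Got1 it began 102 bases before the start and lay on the opposite strand, so its letters appear in reverse complement. The third match lay 103 bases before the start of Pycr1, whose transcript is not analysed here. The windows of Gpt2, Aldh18a1, Got2, Glul and Cbs held no match. The cyclic AMP response element TGACGTCA was in none of the 8 windows, against 1.79% of all windows. The E-box CACGTG, the core read by Mondo-type glucose-sensing factors and many others, was in 2 of the 8, Cbs and Aldh18a1, against 7.15% of all windows. None of the 8 windows held different motifs together. The core was chosen from knowledge of the amino acid response, and its element is classic in the human ASNS promoter. A match in Asns could thus be foreseen, and the shares are no test of an excess. A match is a description of letters and says nothing of binding in these cells.

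Of the 7 measured enzymes 5 rose in Glut1-deficient keratinocytes, none fell and 2 did not pass the test. The 5 were Cth, Gpt2, Got1, Aldh18a1 and Asns, with rises between 1.68-fold and 5.41-fold. Among all genes 4.12% were called higher and 3.13% lower by the same rule, a limma adjusted p under 0.05 over all rows that name 1 gene. Both Glut1-deficient arrays lay above both wild type arrays in 6 of the 7 enzymes, against 23.9% of all genes. All signals below are on the log2 scale of the deposited table, and all changes are Glut1-deficient minus wild type. A signal at or under a background floor, set in each array from control rows between 4.36 and 4.87, was not read as a level. By that floor 1 of the 7 enzymes lay at background in both genotypes, against 13392 of all 30142 genes. The exact permutation test over 2 against 2 arrays cannot give a two-sided p below 0.333, so the tests given are those of limma, fitted over all rows.

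**Figure D1:**
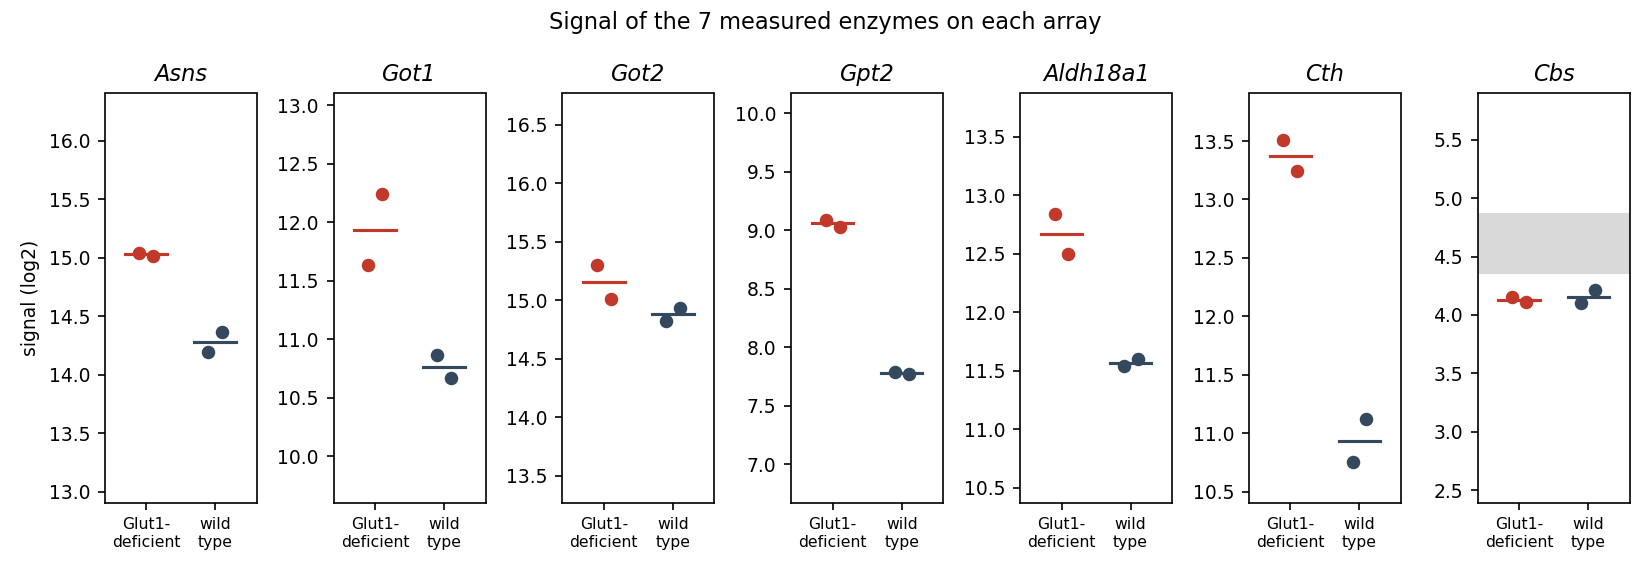
Signal (log2) of each measured enzyme on the 4 arrays, 1 point per array, with a line at the mean of each genotype. Every panel spans the same number of log2 units around its own centre, and the grey band in the Cbs panel covers the background floors of the arrays. Points of Glut1-deficient and wild type cells are farthest apart for Cth and lie under the floor in both for Cbs.

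Asparagine synthetase, encoded by Asns, makes asparagine from aspartate with glutamine as the nitrogen donor. Its signal was 15.04 and 15.02 on the Glut1-deficient arrays, against 14.19 and 14.37 on the wild type arrays. The genotypes did not overlap, and the Glut1-deficient arrays lay closer together than the wild type arrays. The change was 0.75 (SE 0.11, n = 2 per genotype), or 1.68-fold with a 95% interval from 1.39 to 2.02 (limma adjusted p = 0.0232). This was the smallest of the 5 called rises and ranked 949th of 30142 genes by size of rise. The gene passed in none of the 4 fits that left out an array, with changes between 0.66 and 0.84 and adjusted p-values between 0.0700 and 0.119.

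The aspartate aminotransferases exchange the amino group between glutamate and aspartate. Got1 encodes the cytosolic enzyme and Got2 the mitochondrial one, and together they carry the amino group in the malate-aspartate shuttle. Got1 had signals of 11.63 and 12.24 in Glut1-deficient cells, against 10.86 and 10.67 in wild type cells. The Glut1-deficient arrays stood farther apart (SD 0.43) than the wild type arrays (SD 0.14), but the lowest of them lay 0.77 above the highest wild type array. Got1 rose by 1.17 (SE 0.22), or 2.25-fold with a 95% interval from 1.54 to 3.30 (limma adjusted p = 0.0422). The call held without Glut1-deficient replicate 1 (change 1.47, adjusted p = 0.0496). It failed when Glut1-deficient replicate 2 was left out (0.87, adjusted p = 0.0619), and likewise for wild type replicate 1 (adjusted p = 0.108) and wild type replicate 2 (0.139).

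Got2 had signals of 15.30 and 15.01 in Glut1-deficient cells, against 14.83 and 14.93 in wild type cells. The genotypes did not overlap, yet the gap between the nearest arrays was 0.08. Its change of 0.28 (SE 0.13) did not pass (limma adjusted p = 0.321), and the 95% interval ran from -0.06 to 0.61. Whether the changes of Got1 and Got2 differ was not tested. The germ-cell relative Got1l1 was at or under the background floor in both genotypes.

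The alanine aminotransferase of mitochondria, encoded by Gpt2, passes the amino group of glutamate to pyruvate and so links alanine to glycolytic carbon. Its signal was 9.09 and 9.03 on the Glut1-deficient arrays, against 7.79 and 7.77 on the wild type arrays. Replicates were nearly equal within each genotype, and the nearest arrays of the genotypes stood 1.24 apart. Gpt2 rose by 1.28 (SE 0.09), or 2.43-fold with a 95% interval from 2.06 to 2.86 (limma adjusted p = 0.00593). The rise ranked 262nd among all genes. The call held whichever array was left out, with changes between 1.25 and 1.31 and adjusted p-values between 0.0298 and 0.0453. Gpt, the gene of the cytosolic enzyme, lay at or under the floor in both genotypes, at 4.05 and 4.04 in Glut1-deficient cells and 3.91 and 3.97 in wild type cells.

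Proline synthesis from glutamate begins with the mitochondrial enzyme encoded by Aldh18a1, which phosphorylates and reduces glutamate to pyrroline-5-carboxylate. Aldh18a1 had signals of 12.84 and 12.50 in Glut1-deficient cells, against 11.54 and 11.60 in wild type cells. The genotypes were 0.90 apart at their nearest arrays. The gene rose by 1.10 (SE 0.14), or 2.15-fold with a 95% interval from 1.67 to 2.75 (limma adjusted p = 0.0190). The call held without Glut1-deficient replicate 2 (adjusted p = 0.0331). It failed when Glut1-deficient replicate 1 (0.0619), wild type replicate 1 (0.0830) or wild type replicate 2 (0.0675) was dropped, with changes between 0.93 and 1.27 over the 4 fits. Of the reductases that finish proline, only Pycrl was measured here, at 6.46 and 6.13 in Glut1-deficient cells against 6.50 and 6.48 in wild type cells (change -0.20, SE 0.14, limma adjusted p = 0.515).

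Transsulfuration has a pair of steps. Cystathionine beta-synthase, encoded by Cbs, joins homocysteine to serine, and cystathionine gamma-lyase, encoded by Cth, cleaves the product to release cysteine. Cth had signals of 13.51 and 13.24 in Glut1-deficient cells, against 10.76 and 11.12 in wild type cells. The nearest arrays of the genotypes stood 2.12 apart, the widest gap of the 7 enzymes. Cth rose by 2.44 (SE 0.17), or 5.41-fold with a 95% interval from 4.04 to 7.26 (limma adjusted p = 0.00523). It ranked 55th of 30142 genes by size of rise. The call held whichever array was left out, with changes between 2.26 and 2.62 and adjusted p-values between 0.00964 and 0.0433.

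Cbs had signals of 4.15 and 4.11 in Glut1-deficient cells and 4.10 and 4.21 in wild type cells. All 4 values lay under the floor of their array, so no fold is given. The limma adjusted p was 0.941. The array thus held no signal above background for the step before Cth in either genotype.

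**Figure D2:**
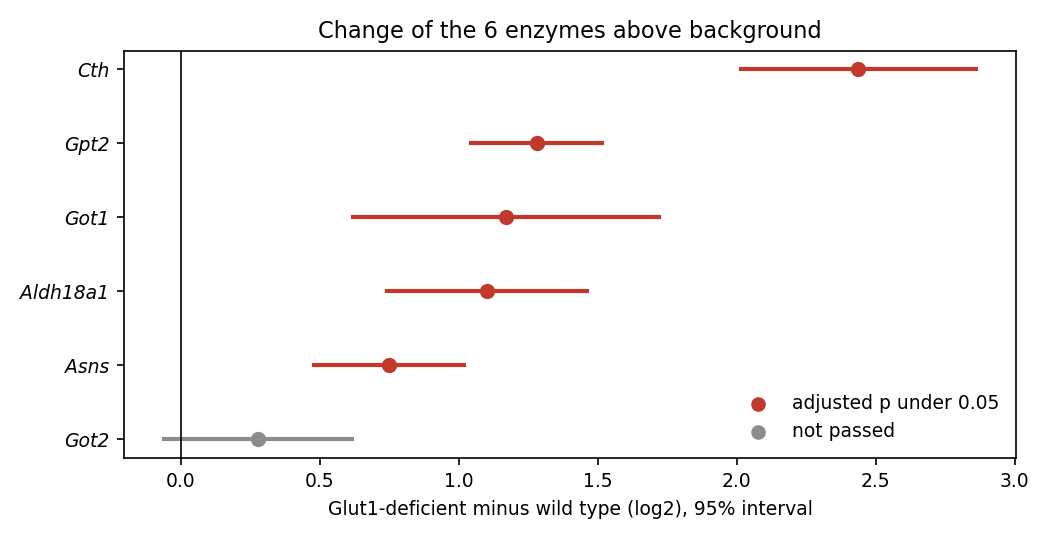
Change (log2, Glut1-deficient minus wild type) of the 6 enzymes above background; points are estimates and bars limma's 95% intervals. The intervals of Cth, Gpt2, Got1, Aldh18a1 and Asns lie above 0, and that of Got2 runs from -0.06 to 0.61.

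Leaving out 1 array left 2 or 3 of the 5 calls. Cth and Gpt2 passed in all 4 such fits. When all rows were tested, control and unnamed ones included, limma called 0 of the 7 enzymes, with adjusted p-values from 0.0516 for Cth to 0.158 for Got1 among the 5. At an unadjusted p under 0.05 that fit counted 5 of the 7, against 13.4% of its 72688 rows.

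**Figure D3:**
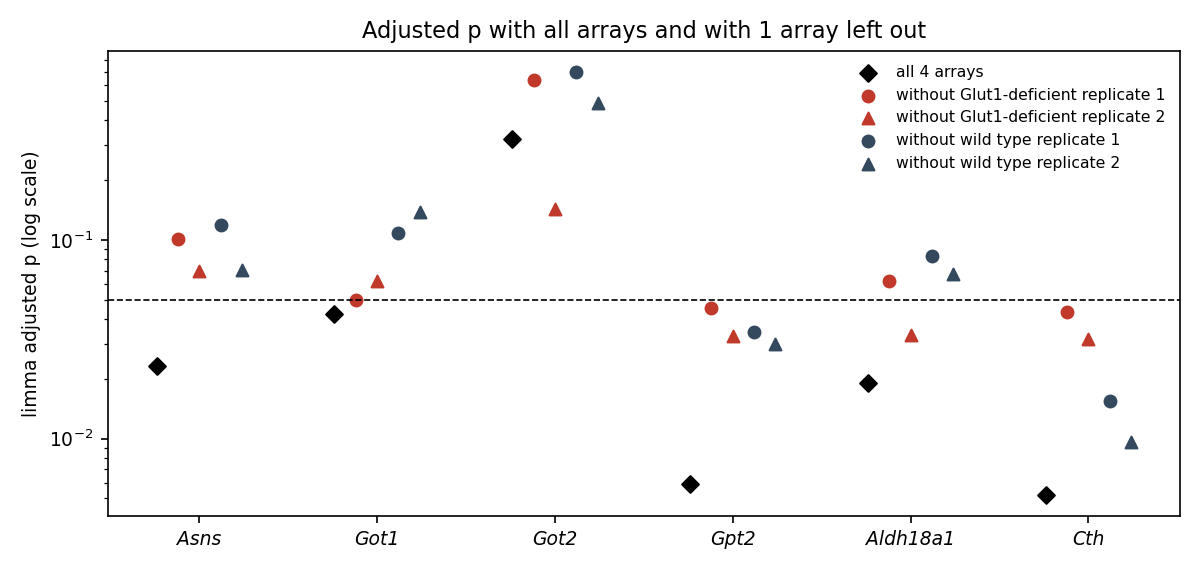
Adjusted p of limma (log axis) for the 6 enzymes above background, with all 4 arrays and with each array left out in turn; the dashed line marks 0.05. All 5 points of Cth and of Gpt2 lie under the line, whereas Asns lies under it only with all arrays.

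Other genes of these pathways were read from 6 lists, leaving out the enzymes above. The lists overlap, and Slc7a11, Cad, Oat, Slc25a12 and Slc25a13, each shared between lists, count once in the totals. Of 85 measured genes in the lists 18 rose, 1 fell and 66 did not pass, and 23 were at or under the background floor in both genotypes. Their median change was 0.11, against -0.01 over all genes. The shares to set beside these counts and those of each list below are 4.12% higher and 3.13% lower over all genes. Of all 30142 genes 13392 were at or under the floor in both genotypes, and such genes are seldom called. With 1 array left out, between 7 and 11 list genes were called higher.

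In methionine and cysteine metabolism 5 of 19 genes rose and none fell, with a median change of 0.42. Slc7a11, the transport chain of the exchanger that imports cystine, had 10.58 and 11.13 in Glut1-deficient cells, against 9.10 and 8.89 in wild type cells (change 1.86, SE 0.20, limma adjusted p = 0.0146). Sqor, the mitochondrial enzyme that oxidises hydrogen sulfide, had 7.75 and 7.46 in Glut1-deficient cells, against 5.68 and 5.76 in wild type cells (change 1.88, SE 0.13, limma adjusted p = 0.00523). Chac1, which degrades glutathione, rose by 2.27, and Tst, a sulfurtransferase, by 0.78. The call of Tst was lost whichever array was left out (adjusted p between 0.0618 and 0.1000), while those of Slc7a11, Sqor and Chac1 held in all 4 fits. Ahcy, which releases homocysteine, changed by -0.30 (limma adjusted p = 0.151) and its relative Ahcyl1 by 0.22 (0.284), neither of which passed. Another relative, Ahcyl2, was called higher (change 0.62, limma adjusted p = 0.0495), but its call was lost whichever array was left out.

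Among the carriers of these amino acids 6 of 20 rose, Slc7a11 of the list above included, and none fell. The median change was 0.17, and 8 carriers were at or under the floor. Slc1a4, a carrier of alanine, serine and cysteine, had 10.65 and 10.24 in Glut1-deficient cells, against 8.04 and 8.11 in wild type cells (change 2.37, SE 0.16, limma adjusted p = 0.00523). The lysosomal glutamine carrier gene Slc38a7 rose by 1.94, Slc3a2, the partner chain of Slc7a11, by 1.26 and Slc38a2, a glutamine and alanine carrier, by 0.97. The call of Slc38a2 was lost without Glut1-deficient replicate 1 or wild type replicate 1, with adjusted p-values up to 0.0671, and the other 3 held in all 4 fits. Slc38a1 did not pass (change 0.63, SE 0.45, limma adjusted p = 0.524), and its wild type arrays, at 10.90 and 9.66, overlapped the Glut1-deficient arrays, at 10.56 and 11.26. Slc25a13, a mitochondrial aspartate and glutamate carrier of the malate-aspartate shuttle, changed by -0.21 (limma adjusted p = 0.301).

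In the proline and ornithine list 3 of 13 genes rose and none fell, with a median change of 0.01. Odc1, which turns ornithine into putrescine, rose to 16.26 and 16.21 in Glut1-deficient cells, against 14.71 and 14.88 in wild type cells (change 1.44, SE 0.11, limma adjusted p = 0.00627), and held in all 4 fits with 1 array left out. Eprs, the glutamyl-prolyl-tRNA synthetase, rose by 0.92 and Pepd, a peptidase that frees proline from dipeptides, by 0.67. Eprs passed in 1 of the 4 fits with an array left out and Pepd in none of them. Oat, which joins ornithine to the proline pathway, changed by -0.16 (limma adjusted p = 0.608), and P4ha1, a collagen prolyl hydroxylase subunit, by 0.01 (0.978).

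Among the other aminotransferases 2 of 13 rose and none fell, with a median change of 0.10 and 7 at or under the floor. Bcat1, the cytosolic branched-chain aminotransferase, had 6.77 and 7.12 in Glut1-deficient cells, against 5.61 and 5.63 in wild type cells (change 1.32, SE 0.14, limma adjusted p = 0.0140). Psat1, the serine-pathway aminotransferase, rose by 0.48. The mitochondrial form Bcat2 changed by 0.22 and did not pass (limma adjusted p = 0.292). Bcat1 was lost without either wild type array (adjusted p up to 0.0575), and Psat1 whichever array was left out.

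The enzymes that use glutamine went both ways: 2 of 11 rose and 1 fell, with a median change of -0.01. Gfpt1, the first enzyme of the hexosamine pathway, rose by 0.67 and Nit2, an omega-amidase, by 0.53. Ppat, which commits glutamine nitrogen to purines, had 10.08 and 10.07 in Glut1-deficient cells, against 10.64 and 10.57 in wild type cells, and fell by 0.53 (SE 0.09, limma adjusted p = 0.0375). The nucleotide enzyme genes Ctps and Gmps changed by -0.47 (limma adjusted p = 0.0600) and -0.39 (0.196), neither of which passed. In the asparagine and aspartate list 1 of 14 rose, Nars, the asparaginyl-tRNA synthetase, by 0.60, and none fell, with a median change of 0.02. Adss, an adenylosuccinate synthetase that uses aspartate, changed by -0.19 (limma adjusted p = 0.492) and Mdh2, the mitochondrial malate dehydrogenase, by 0.15 (0.544). The calls of Gfpt1, Nit2, Ppat and Nars were each lost whichever array was left out.

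**Figure D4:**
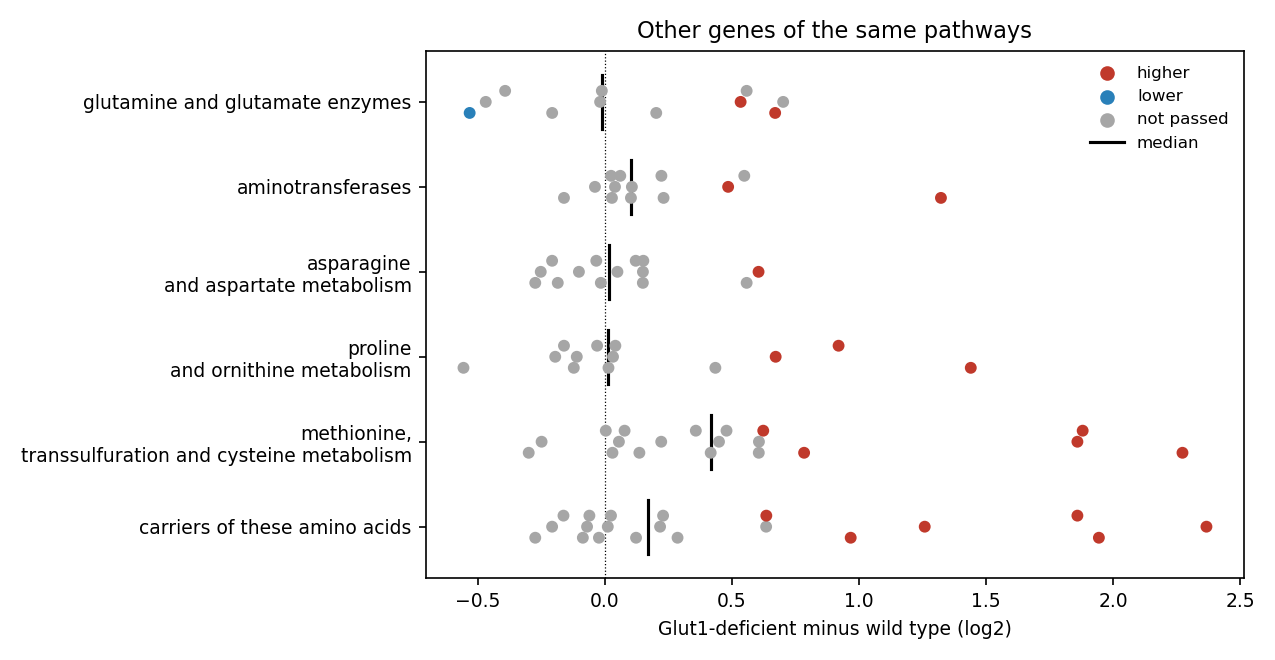
Change (log2, Glut1-deficient minus wild type) of each measured gene of the 6 lists, 1 point per gene, with a line at the median of each list; the listed enzymes above are left out. Red points are called higher, the single blue point, Ppat, lower, and grey points did not pass. Points above 1 lie in the aminotransferase, proline, methionine and cysteine, and carrier lists.

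Array medians lay between 4.19 and 4.24, and 2209 of 30604 rows with 1 gene symbol changed, or 7.22%. Slc2a1, the gene of Glut1, had 12.09 and 12.01 on the Glut1-deficient arrays, against 13.26 and 13.40 on the wild type arrays (change -1.28, limma adjusted p = 0.00754). With Glut1-deficient replicate 1 left out it did not pass (adjusted p = 0.0508). All 8 listed keratinocyte markers were measured, with 1 called higher and none lower. The called one was Dsg3, a desmosomal cadherin gene, with 15.93 and 15.82 in Glut1-deficient cells, against 14.88 and 15.03 in wild type cells (change 0.92, limma adjusted p = 0.0157). It passed only in the fit without Glut1-deficient replicate 2 when 1 array was left out, with adjusted p-values from 0.0477 to 0.0811. Krt5 and Krt14 lay between 16.97 and 18.30 in Glut1-deficient cells and between 17.40 and 18.69 in wild type cells. Krt1, Krt10 and Krt15 lay between 4.34 and 5.31 in Glut1-deficient cells and between 4.45 and 5.48 in wild type cells. For each of these genes and Itga6 both Glut1-deficient arrays lay below both wild type arrays, but none passed. Krt1 was at or under the floor on both Glut1-deficient arrays and on wild type replicate 2, so its difference is not read as a level. Krt15 was under the floor on Glut1-deficient replicate 1. The changes were -0.51 for Krt5 (limma adjusted p = 0.0994), -0.43 for Krt14 (0.122) and -0.33 for Itga6 (0.129). Trp63 lay above, by 0.18, and did not pass (0.476). The summed signal of 6 melanocyte markers was 12.37 and 11.11 in Glut1-deficient cells, against 10.52 and 10.00 in wild type cells, with 1 of the 6 called higher. The sum over 5 fibroblast markers was 7.09 and 7.36 in Glut1-deficient cells, against 6.62 and 6.61 in wild type cells. Of the 5, 1 was called higher, Dcn (change 1.68, limma adjusted p = 0.0250), and 2 were at or under the floor in both. Dcn, Col3a1 and Lum were at or under the floor in wild type cells, so the wild type sum holds background and is not read as a level. Of 5 Merkel cell markers 2 were lower in Glut1-deficient cells, the simple keratin genes Krt8 (change -2.25) and Krt18 (-1.48). Another 2, Atoh1 and Isl1, were at or under the floor in both genotypes. Krt20, at or under the floor in wild type cells, did not pass. Of 5 endothelial markers 1 was higher, Kdr, and 3 were at or under the floor in both genotypes. Pecam1, at or under the floor in Glut1-deficient cells, lay lower there but did not pass. Most markers of both lists were at or under the floor in at least 1 genotype, so whether either list moved as a set cannot be told. The 5 leukocyte markers were all at or under the floor. Of 5 adipocyte and muscle markers none passed, and 3 were at or under the floor in both genotypes. Acta1, above the floor, changed by -0.42 (limma adjusted p = 0.102). The part of these other cell types in the changes of the enzymes was not tested, and in bulk RNA fewer cells of a type and less RNA per cell cannot be told apart.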

How the data were processed

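RNA was hybridised to 4 MTA-1_0 arrays of 1 colour, one for each pool of plates. The deposited values are log2 signals of whole genes; per the submitters' processing notes the authors used RMA in Affymetrix Expression Console, and the labels name the SST-RMA variant. No source used here gives versions, genome build or annotation release. RMA equalises the distributions of arrays, which hides any change common to most genes.

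Of 72688 rows, 30604 named 1 gene in the platform table, for 30142 genes. Gene IDs of 22818 of these rows matched RefSeq (GRCm38.p6), which updated 827 symbols. Genotypes were compared with limma 3.58.1 (lmFit, eBayes, default settings) in R 4.3.3, two-sided, without a replicate block and with Benjamini-Hochberg adjustment over the 30604 rows; an adjusted p under 0.05 was called. The floor was the 95th percentile of 23 background control rows in each array. Summed marker signals are the log2 of the sum of unlogged values. Precision is limited by the number of arrays.

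The enzymes, lists and alternatives were chosen with earlier results of these data known. The named genes are the enzymes, Slc2a1, the measured paralogs and, per list, up to 4 further genes that passed, by smallest p, and up to 2 that did not, by highest signal. Ahcyl2, which passed, is named as well, beside its relatives. The 6 lists held 95 genes beside the enzymes, of which 85 were measured.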

Additional observations from a re-analysis of the deposited data

How the results depend on the processing

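The directions of the 6 enzymes above background held under every alternative. The count of 5 called enzymes held after quantile normalization, in the brighter part of the rows (mean no lower than the median), with an intensity trend and robust moderation, and with the mean of a gene's rows. With every row of the table tested, 74 rows, 0 enzymes, 2 higher and 0 lower list genes passed, and the change of Slc2a1 (-1.28) had an adjusted p of 0.0648. Leaving out 1 array gave 314 to 1214 changed rows, 2 to 3 enzymes, 7 to 11 higher and 0 lower list genes, and a Slc2a1 change from -1.35 to -1.21. These fits rest on fewer arrays and residual degrees of freedom; for the fit of every row the cause was not tested. The 1 lower list gene became 0 after quantile normalization and 3 in the brighter rows; the cause was not tested. The change of Cbs, under the floor in both genotypes, lay between -0.082 and 0.032 with 1 array left out, against -0.025 with all arrays. Same-numbered arrays deviated oppositely (r = -0.23 across rows and -0.29 in the brighter rows), and plates were combined at random. The numbers were therefore not read as pairs, and the source of the opposite deviation was not tested. With the replicate block 1849 rows and 5 enzymes passed, with 14 higher and 0 lower list genes. A crossed block, chosen after seeing the data, gave 2039 rows and 5 enzymes.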
